A study of Mus musculus with 2 samples.

Results

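Inflammasome and pyroptosis genes are described here as a set of 8 of the 33696 genes counted in both libraries. They were chosen by symbol for their place in the pathway. The members are the sensors Nlrp3 and Aim2, the adaptor Pycard, the caspases Casp1 and Casp4, the gasdermins Gsdmd and Gsdme, and Ninj1, which acts at the last step of membrane rupture. All 8 symbols were found. Their unique molecular identifiers (UMIs, each standing for 1 captured RNA molecule) were read per cell and summed per library and class of cells.

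The RNA came from ulcerated skin of mice in a tape-stripping model of ulcerative dermatitis, in which the stripping stands for scratching. The library labelled TG was of the genotype that overexpresses Has2, a hyaluronan synthase, in the whole body, and the WT library was of the wild-type genotype. Both labels give tape stripping on 15 consecutive days, 40 to 50 strips per day, and the labels differ only in genotype and in the molecule named, polyA RNA for the library labelled TG and total RNA for the WT library. The treatment label starts mid-sentence, so an earlier step that both libraries share may be missing from it. The labels give neither the promoter of the transgene nor the age or number of mice. With 1 library per genotype there was no replicate check and no test, and genotype, animal and library preparation cannot be told apart. All intervals are 95% intervals that cover counting error only.

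An inflammasome is a protein platform that a sensor builds in the cytosol when it meets a sign of infection or damage. Through the adaptor ASC, the product of Pycard, it activates caspase-1, which matures the cytokines interleukin-1 beta and interleukin-18 and cleaves gasdermin D. The freed part of the gasdermin forms pores in the plasma membrane, and the lytic death that follows, pyroptosis, ends when NINJ1 breaks the membrane open. In skin the pathway is known mainly from neutrophils, macrophages and keratinocytes, and RNA levels do not show whether any of these proteins was active.

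The library labelled TG held 134917708 UMIs in 14622 barcodes, with a median of 4320, and the WT library 143875454 in 16999, with a median of 4287. After filters on genes and mitochondrial UMIs, 14415 and 16837 cells were kept, and 77 of the kept barcodes occurred in both libraries. A cell entered a class when at least 3 of 8 markers were detected with a lead of at least 2 over every other class, and 2125 and 2863 cells met no such rule. Class names mean cells like the named type. Has2 itself was at 85.8 CPM over all kept cells of the library labelled TG and 71.5 CPM in the WT library, a TG/WT ratio of 1.20 (1.17 to 1.23). That ratio mixes the classes. Most Has2 UMIs lay in fibroblast-like cells, where it was at 142 CPM in the library labelled TG against 181 CPM in the WT library. On far fewer UMIs it was higher in the library labelled TG in other classes compared below. Neutrophil-like cells had 49 and 22 UMIs (TG/WT ratio 3.96), and macrophage- or monocyte-like cells 60 and 12 (6.39). Endothelial-like cells had 24 and 13 (2.16), with 66.7% of the 24 in the fullest cell. T cell-like cells had only 1 and 2. Among classes too small to compare, keratinocyte-like cells had 345 CPM from 1479 UMIs in 187 cells of the library labelled TG. The WT library had 176 CPM there, from 65 UMIs in 20 cells. Schwann-like cells had 128 CPM from 55 UMIs in the library labelled TG and 8.61 CPM from 3 in the WT library. Pericyte-like cells went the other way, with 98.9 CPM from 112 UMIs and 181 CPM from 70. The check of the label thus went both ways, by class. CPM are UMIs scaled to the total of the class and library, and they are compared between classes and libraries but not between genes.

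**Figure D1:**
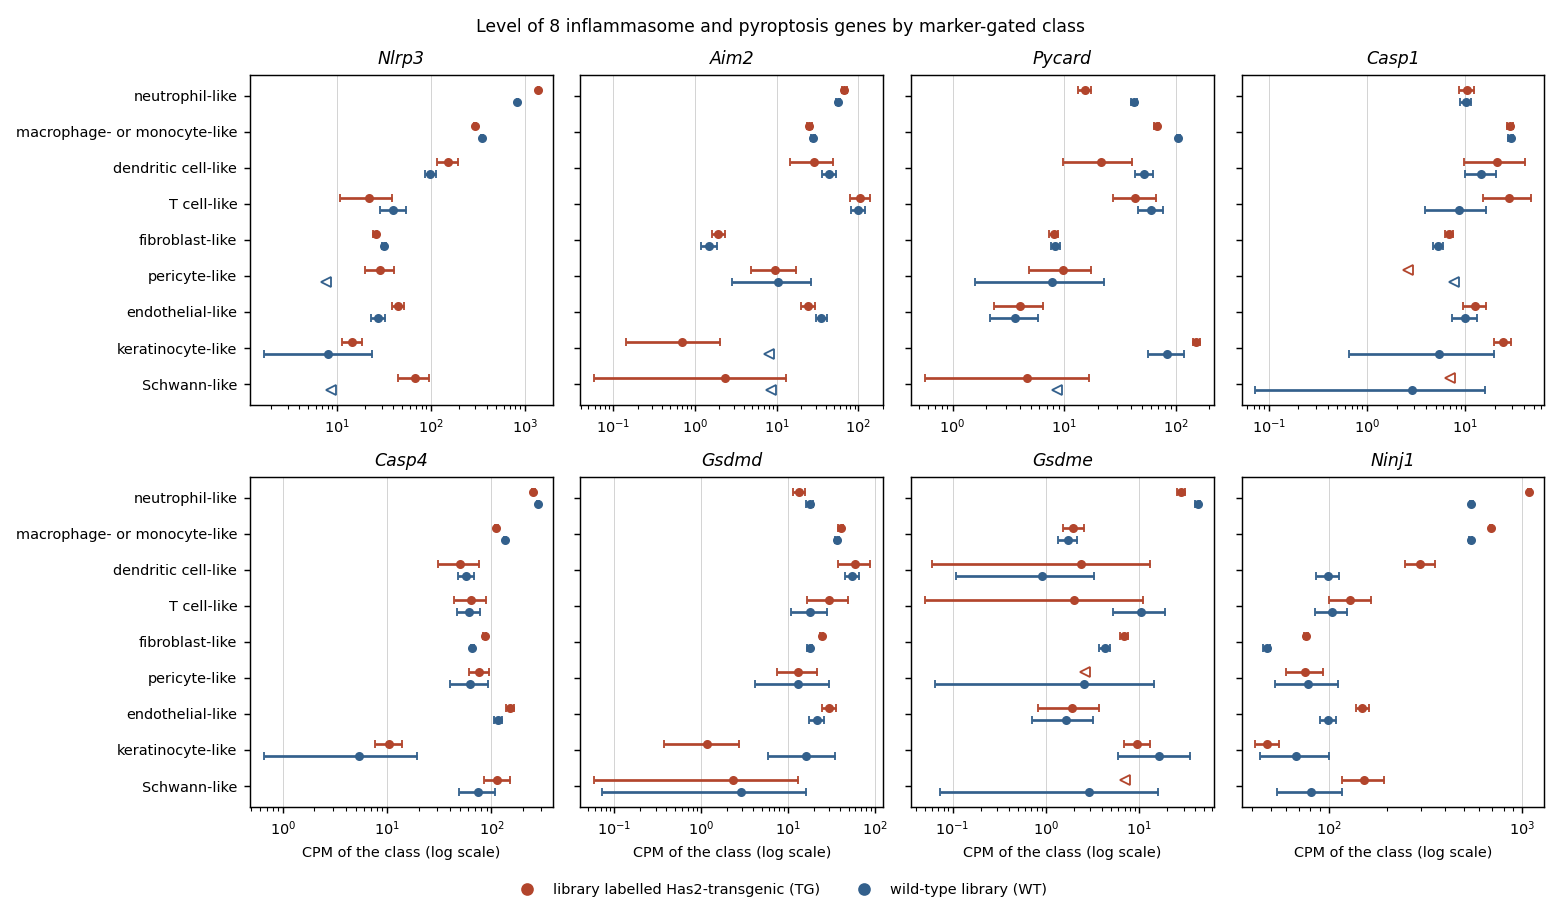
Level of each of the 8 genes (CPM, log axis) in the classes with at least 50 cells in either library, the library labelled TG (red) above the WT library (blue). Bars are exact Poisson intervals and open triangles mark the level that 3 UMIs would give where none was counted. Nlrp3, Casp4 and Gsdme stood highest in neutrophil-like cells of both libraries.

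Ranked by level over the classes with at least 50 cells in a library, Nlrp3 was highest in neutrophil-like cells and next in macrophage- or monocyte-like cells of both libraries, with intervals that did not overlap. Casp4 and Gsdme were also highest in neutrophil-like cells, and Aim2 in T cell-like cells, apart from the next class in both libraries. Casp1 was highest in macrophage- or monocyte-like cells of both, but in the library labelled TG the T cell-like and keratinocyte-like intervals overlapped it. Ninj1 was highest in neutrophil-like cells, apart from macrophage- or monocyte-like cells in the library labelled TG and overlapping them in the WT library. Pycard was highest in keratinocyte-like cells of the library labelled TG and in macrophage- or monocyte-like cells of the WT library, where only 20 keratinocyte-like cells were found. Gsdmd was highest in the macrophage- or monocyte-like class of the library labelled TG and in dendritic cell-like cells of the WT library, a class with 47 cells in the library labelled TG and so not ranked there.

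The 5 classes with at least 100 cells in each library were compared. They were neutrophil-like cells (5415 in the library labelled TG and 6586 in the WT library), macrophage- or monocyte-like cells (3624 and 4254), fibroblast-like cells (2445 and 2279), endothelial-like cells (255 and 253) and T cell-like cells (141 and 234). A member was called past the fold when its ratio was at least 1.5, or lower by the same factor, and it had at least 20 UMIs over both libraries. In neutrophil-like cells all 8 members had enough UMIs and 4 were past the fold, against 27.7% of 12362 measured genes. Nlrp3 and Ninj1 were higher in the library labelled TG, as were 15.9% of genes, and Pycard and Gsdme lower, as were 11.9%. In macrophage- or monocyte-like cells 1 of 8 was past the fold, Pycard, which was lower, against a background of 21.7% in either direction and 7.33% lower. Fibroblast-like cells had 2 of 8, Gsdme and Ninj1, both higher, against 27.7% of genes in either direction, 19.3% higher and 8.42% lower. Endothelial-like cells had 2 of 7 measured, Nlrp3 and Ninj1, both higher, against 22% in either direction, 14.2% higher and 7.79% lower. T cell-like cells had 3 of 7, Casp1 and Gsdmd higher and Nlrp3 lower, against 25.1%, with 11.1% higher and 14% lower. No test of these counts against their background was made. The median log2 ratio of the members was -0.06 in neutrophil-like cells, beside 0.02 over all measured genes, and 0.39 in fibroblast-like cells, beside 0.00.

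**Figure D2:**
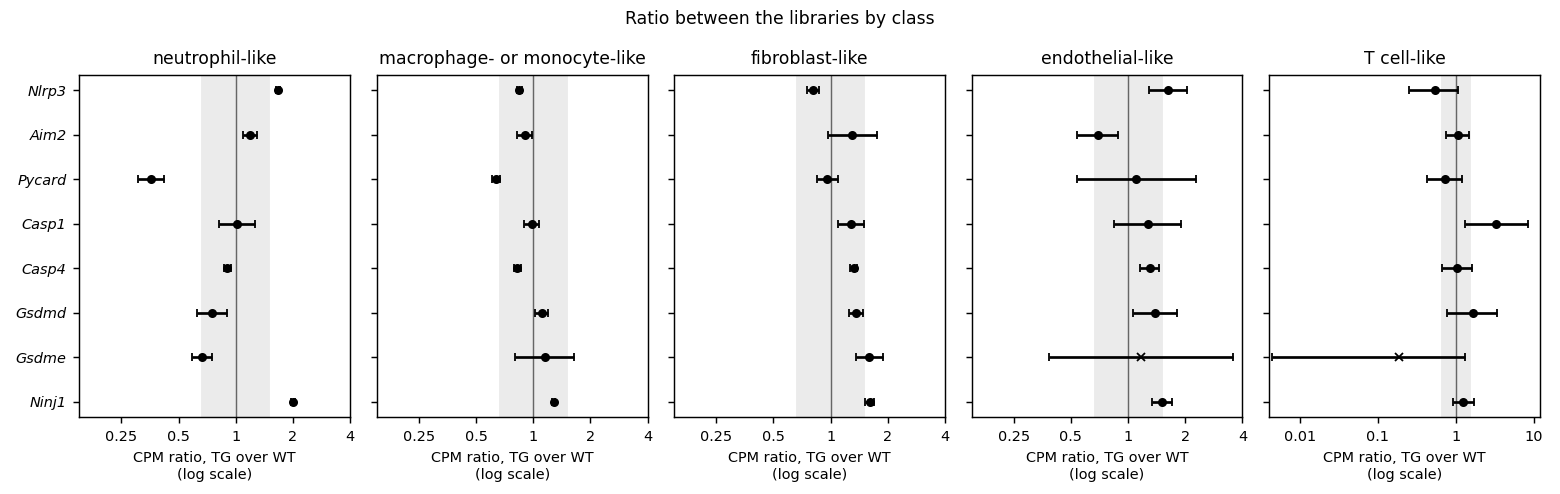
Ratio of class CPM, the library labelled TG over the WT library (log axis), with exact intervals for counting error, in the 5 compared classes. The grey band spans ratios within 1.5-fold, crosses mark members with fewer than 20 UMIs, and the T cell-like panel has a wider axis. Pycard lay lowest and Ninj1 highest in neutrophil-like cells.

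Nlrp3 (ENSMUSG00000032691) encodes the sensor that responds to ion fluxes and membrane damage. Neutrophil-like cells held 52.4% of its UMIs in the library labelled TG and 45.9% in the WT library, and macrophage- or monocyte-like cells 26.5% and 32.8%. In neutrophil-like cells it was at 1403 CPM in the library labelled TG and 840.0 CPM in the WT library, a TG/WT ratio of 1.67 (1.64 to 1.70). The same cells had a median of 2104 UMIs in the library labelled TG and 3124 in the WT library. With each cell thinned to 1000 UMIs, 62.5% of 5165 neutrophil-like cells of the library labelled TG had a Nlrp3 UMI, against 47.6% of 6388 in the WT library, and unthinned the shares were 78.4% and 75.1%. Thinned fibroblast-like cells, a class that holds little of this gene, had 2.40% and 2.75%, well below the neutrophil shares.

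Outside neutrophil-like cells the ratios of Nlrp3 lay nearer to 1 or turned with the setting. In macrophage- or monocyte-like cells it was at 298 CPM in the library labelled TG and 353 CPM in the WT library, a TG/WT ratio of 0.846 (0.824 to 0.869). Fibroblast-like cells had 25.9 and 32.1 CPM, a TG/WT ratio of 0.808 (0.754 to 0.866), which turned to 1.05 averaged over per-cell CPM and was 1.36 and 0.986 in 2 random draws of cells thinned to 1000 UMIs. Endothelial-like cells had 44.8 CPM from 188 UMIs in the library labelled TG and 27.7 CPM from 136 UMIs in the WT library, a TG/WT ratio of 1.62 (1.29 to 2.03). In thinned cells that ratio was 0.700 in the first draw, on 5 and 7 UMIs, and 1.63 in the second, on 10 and 6. In T cell-like cells the gene rested on 3 cells of the library labelled TG and 9 of the WT library, with 11 and 42 UMIs, and the fullest cell had 81.8% of them in the library labelled TG and 42.9% in the WT library. Its ratio of 0.545 (0.253 to 1.08) became 3.66 without the highest doublet scores, so no direction is read from it. Over all kept cells, where the classes are mixed, Nlrp3 was at 259 CPM in the library labelled TG and 296 CPM in the WT library, a TG/WT ratio of 0.877 that ran against the neutrophil ratio.

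The promoter windows below, from 250 bases before to 50 bases after an annotated start, were taken from RefSeq sequence of build GRCm38.p6. Of the 8 members, 7 matched by symbol, with 9 windows. The one of Nlrp3 shown lies at chr11:59541319-59541618 on the plus strand and is printed because this gene was past the fold in neutrophil-like cells and the window holds a match to the NF-kB-like motif GGGNNTTNCC (capitals), with its first base at -186 from the start.
Nlrp3: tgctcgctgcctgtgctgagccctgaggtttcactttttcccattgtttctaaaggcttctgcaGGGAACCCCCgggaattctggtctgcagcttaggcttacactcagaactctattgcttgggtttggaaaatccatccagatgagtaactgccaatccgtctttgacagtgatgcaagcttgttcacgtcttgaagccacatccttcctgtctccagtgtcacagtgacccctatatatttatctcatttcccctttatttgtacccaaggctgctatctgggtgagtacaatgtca
This motif, searched on both strands, was found in 4.79% of 32851 promoter windows of the same length, and the other Nlrp3 window, at chr11:59542436-59542735, had no match. A match describes letters and shows no binding.

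Aim2 (ENSMUSG00000037860) encodes a sensor of double-stranded DNA in the cytosol. Its level was highest in T cell-like cells of both libraries, 105 CPM in the library labelled TG and 99.1 CPM in the WT library, from 53 and 104 UMIs, a TG/WT ratio of 1.06 (0.747 to 1.49). Neutrophil-like cells followed with 67.6 and 56.9 CPM, a TG/WT ratio of 1.19 (1.09 to 1.29). The macrophage- or monocyte-like level was 25.3 CPM in the library labelled TG and 28.1 CPM in the WT library, a TG/WT ratio of 0.900, which was 1.05 in the second draw of thinned cells. In endothelial-like cells it was at 24.5 and 35.4 CPM, a TG/WT ratio of 0.693 (0.538 to 0.889), within the fold, with 0.490 and 1.96 in the draws of thinned cells. Fibroblast-like cells were near the bottom at 1.95 and 1.503 CPM. No compared class put Aim2 past the fold.

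Pycard (ENSMUSG00000030793) encodes the adaptor ASC, which links a sensor to caspase-1. Neutrophil-like cells had 199 Pycard UMIs in the library labelled TG and 990 in the WT library, or 15.3 and 42.6 CPM, a TG/WT ratio of 0.358 (0.306 to 0.417). This was the lowest neutrophil ratio of the 8. The thinned share of neutrophil-like cells with a UMI was 1.37% in the library labelled TG and 3.44% in the WT library, and unthinned the shares were 2.99% and 10.1%. Thinned endothelial-like cells, with little of this gene, had 0.410% in the library labelled TG, and 0 of 239 cells in the WT library. The most Pycard UMIs came from macrophage- or monocyte-like cells, 49.6% of those in the library labelled TG and 61.0% of those in the WT library. Their level was 67.4 CPM in the library labelled TG against 106 CPM in the WT library, a TG/WT ratio of 0.636 (0.603 to 0.670). Here 34.4% of cells had a UMI in the library labelled TG and 49.2% in the WT library. After thinning the shares were 6.09% and 9.0%.

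Pycard did not differ beyond counting error in fibroblast-like cells, at 8.06 CPM in the library labelled TG and 8.37 CPM in the WT library, a TG/WT ratio of 0.963 (0.845 to 1.10). T cell-like cells had 43.6 and 60.0 CPM, a TG/WT ratio of 0.727 (0.426 to 1.20), and endothelial-like cells 4.05 and 3.67 CPM. Among classes with at least 50 cells, the highest level was in keratinocyte-like cells of the library labelled TG. It was 154 CPM from 659 UMIs in 187 cells, of which 1 cell held 11.8%. The WT library had 83.7 CPM there from 31 UMIs in 20 cells, too few to compare. Over all kept cells Pycard was the only member past the fold, at 31.2 CPM in the library labelled TG and 47.8 CPM in the WT library, a TG/WT ratio of 0.653 (0.628 to 0.679), where 28.6% of all measured genes were past it, 18% higher and 10.6% lower. The Pycard window at chr7:127993818-127994117 on the minus strand, shown because the gene was lower in neutrophil-like and macrophage- or monocyte-like cells, held a single GC box, GGGCGG (capitals), with its first base at 27 after the start, and no NF-kB-like match.
Pycard: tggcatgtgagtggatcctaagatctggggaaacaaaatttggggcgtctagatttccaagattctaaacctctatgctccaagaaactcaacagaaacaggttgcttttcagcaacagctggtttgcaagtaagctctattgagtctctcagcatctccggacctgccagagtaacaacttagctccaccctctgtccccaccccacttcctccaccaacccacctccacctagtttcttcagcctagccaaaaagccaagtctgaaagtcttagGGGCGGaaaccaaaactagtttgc
A GC box, searched on both strands, was found in 35.7% of all windows.

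Casp1 (ENSMUSG00000025888) encodes caspase-1, the protease of the inflammasome. It was nearly level between the libraries in neutrophil-like and macrophage- or monocyte-like cells. Neutrophil-like cells had 10.3 CPM in the library labelled TG and 10.2 CPM in the WT library, a TG/WT ratio of 1.01 (0.815 to 1.26). Macrophage- or monocyte-like cells, which held 47.9% and 56.3% of its UMIs, had 28.8 and 29.4 CPM, a TG/WT ratio of 0.982 (0.899 to 1.07). Fibroblast-like cells had 6.83 CPM in the library labelled TG and 5.33 CPM in the WT library, a TG/WT ratio of 1.28 (1.10 to 1.498), which turned to 0.819 averaged over per-cell CPM and to 0.885 in the second draw of thinned cells. In endothelial-like cells it was at 12.6 and 9.98 CPM, a TG/WT ratio of 1.27 (0.842 to 1.91). In T cell-like cells Casp1 was past the fold at 27.8 and 8.57 CPM, a TG/WT ratio of 3.24 (1.31 to 8.48) from 14 and 9 UMIs. In thinned cells that ratio was 10.2 on 6 UMIs and 1 UMI in the first draw and 1.02 on 3 and 5 in the second.

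Casp4 (ENSMUSG00000033538) encodes the mouse protein also called caspase-11, which binds bacterial lipopolysaccharide in the cytosol and cleaves gasdermin D outside the canonical inflammasome. It was highest in neutrophil-like cells, 251.2 CPM in the library labelled TG and 279 CPM in the WT library, a TG/WT ratio of 0.901 (0.863 to 0.940). In macrophage- or monocyte-like cells it was at 112 and 135 CPM, a TG/WT ratio of 0.826 (0.792 to 0.863). In fibroblast-like and endothelial-like cells the ratios were above 1. Fibroblast-like cells had 86.1 CPM in the library labelled TG and 65.2 CPM in the WT library, a TG/WT ratio of 1.32 (1.26 to 1.38), and endothelial-like cells 151 and 116 CPM, a TG/WT ratio of 1.30 (1.16 to 1.46). The endothelial ratio was 0.836 in the first draw of thinned cells, on 35 and 41 UMIs, and 1.54 in the second, on 52 and 33. T cell-like cells had 63.5 and 61.0 CPM, a TG/WT ratio of 1.04. None of these reached the fold. The Casp4 window at chr9:5308599-5308898 on the plus strand is shown because it held 3 NF-kB-like matches (capitals), the most of any member, with first bases at -93, -92 and -14 from the start, where those at -93 and -92 overlap.
Casp4: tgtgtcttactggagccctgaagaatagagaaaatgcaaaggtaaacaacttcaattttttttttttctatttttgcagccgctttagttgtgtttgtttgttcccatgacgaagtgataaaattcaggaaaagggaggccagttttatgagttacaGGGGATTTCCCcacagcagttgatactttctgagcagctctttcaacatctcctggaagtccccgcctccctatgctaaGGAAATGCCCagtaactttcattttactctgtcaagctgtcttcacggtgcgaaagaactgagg
The other Casp4 window, at chr9:5308610-5308909, holds the same 3 matches, and no window of any member held the interferon-response-like motif GAAANNGAAA, which was in 3.44% of all windows.

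Gsdmd (ENSMUSG00000022575) encodes gasdermin D, the pore former cut by the inflammatory caspases. Macrophage- or monocyte-like cells had 40.4 CPM in the library labelled TG and 36.5 CPM in the WT library, a TG/WT ratio of 1.11 (1.03 to 1.20), which turned to 0.772 in the second draw of thinned cells. Fibroblast-like cells had 24.4 and 18.0 CPM, a TG/WT ratio of 1.36 (1.25 to 1.48), and endothelial-like cells 29.8 and 21.6 CPM, a TG/WT ratio of 1.38 (1.06 to 1.81). Neutrophil-like cells ran the other way at 13.5 CPM in the library labelled TG and 17.9 CPM in the WT library, a TG/WT ratio of 0.753 (0.628 to 0.900). In T cell-like cells the ratio was past the fold at 1.64 (0.777 to 3.41), from 15 and 19 UMIs, with an interval that spans 1. In thinned cells it was 0.677 on 2 and 5 UMIs in the first draw and 1.48 on 7 and 8 in the second.

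Gsdme (ENSMUSG00000029821) encodes gasdermin E, a pore former that can turn apoptosis into lytic death. In neutrophil-like cells it was at 28.1 CPM in the library labelled TG and 42.3 CPM in the WT library, a TG/WT ratio of 0.663 (0.587 to 0.749), from 366 and 982 UMIs. Thinned neutrophil-like cells had a UMI in 2.65% of the library labelled TG and 4.27% of the WT library, beside 0.167% and 0.118% of macrophage- or monocyte-like cells, where the gene was scarce (1.97 and 1.72 CPM). Unthinned, the neutrophil shares were 5.50% and 10.9%. The ratio was past the fold in 6 of 10 alternative settings. It was within the fold averaged over per-cell CPM (0.724) and in the second draw of thinned cells (0.760). The same held with a stricter gate (at least 4 markers and a lead of at least 3) and with at least 500 genes per cell. In fibroblast-like cells it was the reverse, 6.85 CPM in the library labelled TG and 4.29 CPM in the WT library, a TG/WT ratio of 1.59 (1.35 to 1.88). The mean of per-cell CPM in fibroblast-like cells gave 1.12, within the fold. The draws of thinned cells were also within it, at 1.38 on 14 and 9 UMIs and 1.09 on 16 and 13. Fibroblast-like cells held 43.2% of all Gsdme UMIs in the library labelled TG and 15.4% in the WT library, and neutrophil-like cells 36.8% and 68.9%. Endothelial- and T cell-like cells had too few UMIs to be measured, 8 and 1 in the library labelled TG and 8 and 11 in the WT library.

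Ninj1 (ENSMUSG00000037966) encodes ninjurin 1, which assembles in the membrane of a dying cell and ruptures it. By class CPM it was higher in the library labelled TG in each of the 5 compared classes, though the T cell-like interval spans 1. In neutrophil-like cells it was at 1087 CPM in the library labelled TG and 545 CPM in the WT library, a TG/WT ratio of 1.99 (1.95 to 2.04). The WT library had nearly the same level in macrophage- or monocyte-like cells, 540 CPM, whereas the library labelled TG had 690.4 CPM there, a TG/WT ratio of 1.28 (1.25 to 1.30). Fibroblast-like cells had 76.0 and 47.4 CPM, a TG/WT ratio of 1.60 (1.53 to 1.68), endothelial-like cells 148 and 98.8 CPM, a TG/WT ratio of 1.503 (1.33 to 1.70), and T cell-like cells 129 and 103 CPM, a TG/WT ratio of 1.25 (0.907 to 1.72). The fibroblast ratio was 1.41 in the second draw of thinned cells, within the fold. The T cell-like ratio was 0.998 averaged over per-cell CPM. In that class 25.5% of cells had a UMI in the library labelled TG and 31.2% in the WT library, unthinned. The endothelial ratio sat at the edge of the fold, and the draws of thinned cells gave 2.47 and 1.06. Thinned neutrophil-like cells had a Ninj1 UMI in 59.8% of the library labelled TG and 38.1% of the WT library, and unthinned in 78.1% and 67.1%. Dendritic cell-like cells, with 47 and 211 cells and therefore not compared, had 296 CPM in the library labelled TG and 98.6 CPM in the WT library. The Ninj1 window at chr13:49187279-49187578 on the plus strand is shown as that of the member with the highest neutrophil ratio. It was 76.3% G and C and held 7 GC boxes on either strand (capitals), of which 2 lie after the start.
Ninj1: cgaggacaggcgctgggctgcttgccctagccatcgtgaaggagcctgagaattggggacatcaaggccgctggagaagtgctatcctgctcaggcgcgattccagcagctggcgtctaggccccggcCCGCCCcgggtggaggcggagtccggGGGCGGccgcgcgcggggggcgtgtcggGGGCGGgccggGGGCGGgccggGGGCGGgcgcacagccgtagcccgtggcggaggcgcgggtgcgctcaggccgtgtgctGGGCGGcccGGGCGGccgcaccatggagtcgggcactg

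**Figure D3:**
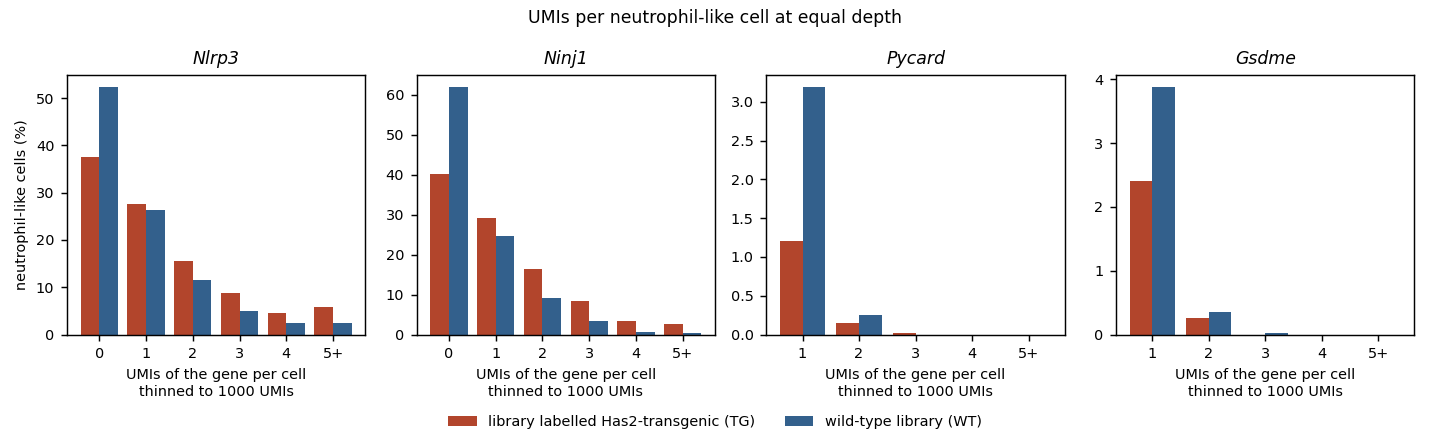
Share of neutrophil-like cells (%) by the number of UMIs of Nlrp3, Ninj1, Pycard or Gsdme after thinning each cell to 1000 UMIs, in 5165 cells of the library labelled TG (red) and 6388 of the WT library (blue). Cells with no UMI are left off for Pycard and Gsdme, and the vertical axes differ. For Nlrp3 and Ninj1 the library labelled TG had the larger share of cells at every number of UMIs from 1 upward.

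Within thinned neutrophil-like cells the difference was spread over the distribution and did not rest on a few cells. Cells with 5 or more Nlrp3 UMIs made up 5.79% of the library labelled TG and 2.44% of the WT library, and cells with 5 or more Ninj1 UMIs 2.63% and 0.297%. No single cell held more than 0.303% of the Nlrp3 or Ninj1 UMIs of the class. Detection of Nlrp3, Pycard and Casp1, the parts of 1 complex, in the same cell was rare at this depth. It was seen in 7 of 5415 neutrophil-like cells of the library labelled TG and 34 of 6586 in the WT library, and in 173 of 3624 and 414 of 4254 macrophage- or monocyte-like cells (4.77% and 9.73%). These shares are not thinned and depend on depth, which was lower in both of these classes in the library labelled TG.

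In these 2 classes some marker levels differed between the libraries, so the members were also read within ranges. Fibroblast-like cells were not split, though their own 8 markers summed to 37176 CPM in the library labelled TG and 13721 CPM in the WT library. Of these markers 6 were higher in the library labelled TG, and Dcn and Pdgfra were lower. The part of this in the fibroblast-like member ratios was not tested. Retnlg, a marker of mature blood neutrophils in mice, was at 5654 CPM in neutrophil-like cells of the library labelled TG and 18292 CPM in the WT library. Of the other 7 neutrophil markers 6 were higher in the library labelled TG, by less than the fold except Il1r2 and Trem1, and G0s2 was lower. Cells with at least 1 Retnlg UMI per 1000 were 51.7% of the class in the library labelled TG and 88.8% in the WT library, and 1204 and 627 cells lay within 2-fold of that limit. Among cells with more Retnlg, Nlrp3 was at 1383 CPM in the library labelled TG and 799 CPM in the WT library, a TG/WT ratio of 1.73 (1.69 to 1.78). Among cells with less, it was at 1423 and 1192 CPM, a TG/WT ratio of 1.19 (1.14 to 1.25), within the fold. In wild-type cells alone, those with less Retnlg had 1.49 times the Nlrp3 level of those with more, while in the library labelled TG the factor was 1.03. Ninj1 had ratios of 1.99 in cells with more Retnlg and 1.47, within the fold, in cells with less. Pycard had ratios of 0.311 (0.247 to 0.386) and 0.463 (0.347 to 0.620), in cells with more and less Retnlg. Gsdme had 33.3 CPM in the library labelled TG and 44.6 CPM in the WT library among cells with more Retnlg, a TG/WT ratio of 0.748, and the same level of 22.5 CPM in both among cells with less. Gsdme was thus within the fold in both ranges, and Pycard past it in both. Aim2 had ratios of 1.18 (1.05 to 1.32) in cells with more Retnlg and 0.816 (0.693 to 0.964) in cells with less. Both lay within the fold, on opposite sides of 1. A range is a slice of a scale and not a cell type.

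Macrophage- or monocyte-like cells with more UMIs of the complement genes C1qa, C1qb and C1qc than of the monocyte genes Ly6c2, Chil3 and Plac8 were 68.3% of the class in the library labelled TG and 49.8% in the WT library. Nlrp3 was lower in cells with more C1q, by a factor of 0.524 in the library labelled TG and 0.557 in the WT library. Within either range its ratio between libraries was close to 1, at 0.923 (0.888 to 0.960) with more C1q and 0.981 (0.940 to 1.02) with fewer. Pycard stayed past the fold in both, at 0.627 (0.588 to 0.669) and 0.605 (0.541 to 0.675). Ninj1 had ratios of 1.26 and 1.44.

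**Figure D4:**
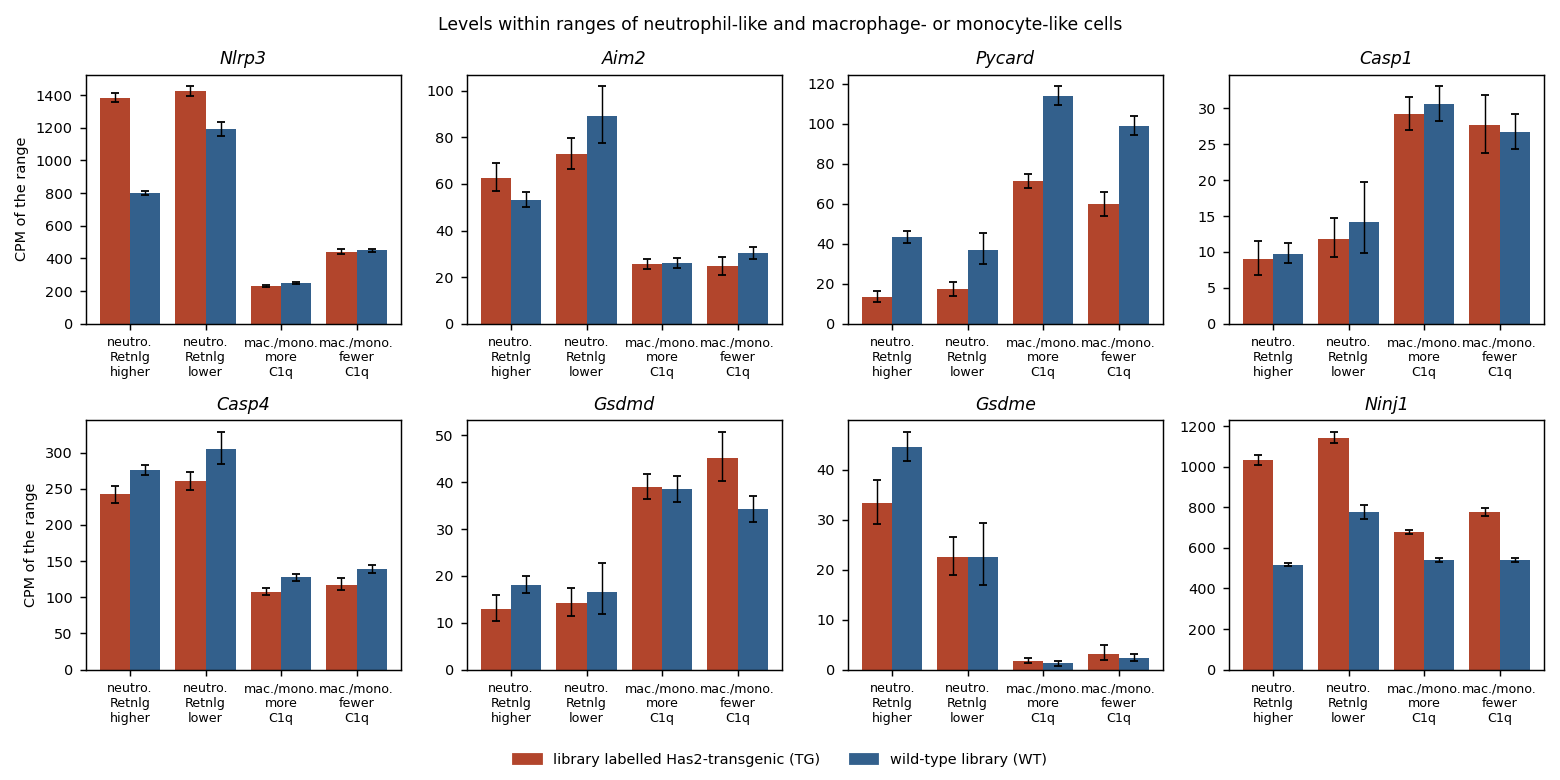
Level of each member (CPM of the range, bars from 0, with exact Poisson intervals) in neutrophil-like cells with more or less Retnlg and in macrophage- or monocyte-like cells with more or fewer C1q UMIs, the library labelled TG (red) left of the WT library (blue). Pycard was lower in the library labelled TG in all 4 ranges and Ninj1 higher in all 4.

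Markers of other cells were read in the same classes. In neutrophil-like cells the 8 macrophage or monocyte markers, none of them at 0, summed to 216 CPM in the library labelled TG and 228 CPM in the WT library, while the 8 fibroblast markers, none at 0, summed to 195 and 76.6 CPM. The 8 neutrophil markers in macrophage- or monocyte-like cells summed to 260 CPM in the library labelled TG and 433 CPM in the WT library. Fibroblast-like cells had 75.2 and 44.6 CPM of macrophage or monocyte markers and 85.3 and 108 CPM of neutrophil markers, each with none at 0. Of these 8 neutrophil markers 6 were higher in the library labelled TG, and only Retnlg (6.21 and 22.6 CPM) and Il1r2 (45.4 and 60.9 CPM) were lower. The libraries also sat in different clusters, as in fibroblast-like cluster 14 with 715 cells of the library labelled TG and 17 of the WT library, and neutrophil-like cluster 6 with 107 and 1830. Where 1 library fills a cluster, the cluster may reflect that library and no type. The part of these values in the member ratios was not tested.

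The members' closest companions were sought over the 10 sums of the 5 compared classes in both libraries, by Pearson correlation of log2(CPM + 10) with 11762 genes. These sums share libraries, so the values only describe. Nlrp3 ran closest to Arg2 (r = 0.997) and Mefv (0.995), Ninj1 to the proton pump genes Atp6v0e (0.994) and Atp6v0c (0.992), and Casp4 to Cdc42ep2 (0.983) and Snap23 (0.972). Aim2 ran with Slu7 (0.982) and Usp15 (0.981), Gsdme with Dubr (0.972) and Mboat7 (0.968), and Pycard with Fermt3 (0.960). The closest to Casp1 were Mknk1 (0.960) and Pctp (0.934), and to Gsdmd Trim69 (0.944) and Taf6l (0.934).

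Around the members, 42 further genes of the pathway in 7 lists were read, of which 40 were matched. Over the 5 classes 133 gene and class pairs were measured, of which 23 were higher and 10 lower past the fold in the library labelled TG. In neutrophil-like cells 2 of 31 were higher and 5 lower, beside 15.9% and 11.9% of all measured genes. Il1a, the cytokine interleukin-1 alpha that lytic death releases, was at 887 CPM in the library labelled TG and 519 CPM in the WT library, a TG/WT ratio of 1.71 (1.66 to 1.75). P2rx7, the ATP-gated channel upstream of NLRP3, was at 59.6 and 35.1 CPM, a TG/WT ratio of 1.70 (1.54 to 1.88). Among the lower were Zbp1, a nucleic acid sensor that can start necroptosis (22.7 and 42.5 CPM, ratio 0.534), and the flagellin sensor Naip5 (ratio 0.580). Nlrp1a (0.455) and Naip6 (0.570), named after their values were seen, were also lower. The Naip genes are near-identical copies, as are Nlrp1a and Nlrp1b in part, so their counts are uncertain. Il1b, the main cargo of caspase-1, stayed within the fold at 7399 CPM in the library labelled TG and 5076 CPM in the WT library, a TG/WT ratio of 1.46 (1.45 to 1.47), and it was named after its value was seen.

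In macrophage- or monocyte-like cells none of 32 was higher and 3 were lower, beside 14.4% and 7.33% of all measured genes. The lower ones were Gbp2, an interferon-induced GTPase (9.53 CPM in the library labelled TG and 17.1 CPM in the WT library, ratio 0.559), Zbp1 (0.604) and, named after its value was seen, Nlrp1a (0.607). Fibroblast-like cells had 6 of 27 higher and none lower, beside 19.3% and 8.42% of all measured genes, led by P2rx7 at 6.35 and 1.85 CPM, a TG/WT ratio of 3.43 (2.73 to 4.33), and with Gbp7 at 11.6 and 6.38 CPM, a TG/WT ratio of 1.83 (1.60 to 2.09). In endothelial-like cells 11 of 23 were higher and none lower, beside 14.2% and 7.79% of all measured genes. All 5 interferon-induced GTPases were among them (Gbp2, Gbp3, Gbp5, Gbp7 and Irgm1, named together after their values were seen), of which Gbp2 was at 93.2 CPM in the library labelled TG and 40.1 CPM in the WT library, a TG/WT ratio of 2.32 (1.95 to 2.77). Il1a had 72.4 and 24.8 CPM, a TG/WT ratio of 2.92 (2.36 to 3.63), and Serpinb1a, an inhibitor of neutrophil serine proteases, 150 and 64.1 CPM, a TG/WT ratio of 2.34 (2.04 to 2.68). Neutrophil markers in this class summed to 115 CPM in the library labelled TG and 119 CPM in the WT library, and macrophage or monocyte markers to 76.5 and 58.8 CPM, none at 0. The 8 fibroblast markers, none at 0, summed to 198 CPM in the library labelled TG and 71.3 CPM in the WT library, and the 8 keratinocyte markers to 8.34 and 2.65 CPM, with 1 and 5 at 0. Their part was not tested.

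T cell-like cells had 4 of 20 higher and 2 lower, beside 11.1% and 14% of all measured genes. Among the higher was Txnip, a thioredoxin-binding protein that can bind NLRP3, at 147 and 68.6 CPM, a TG/WT ratio of 2.14 (1.53 to 3.003). The lower ones, named after their values were seen, were Il1a and Ripk3, on 2 and 6 UMIs in the library labelled TG and 29 and 32 in the WT library. The others past the fold there, named likewise, were Gbp3 (3.01), Gbp7 (1.57) and Dpp9 (1.84). Neutrophil markers in these cells summed to 621 CPM in the library labelled TG, with Csf3r and G0s2 at 0, and 211 CPM in the WT library. Of these sums Il1r2 alone made up 478 and 60.0 CPM, and only 3 of the 8 markers were higher in the library labelled TG. Dendritic cell markers summed to 587 and 308 CPM and fibroblast markers to 75.4 and 39.1 CPM, and their part was not tested.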

How the data were processed

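Single-cell RNA sequencing of 2 libraries was used, 1 of each genotype, grouped by the genotype label. Per the labels' protocols, skin was digested with dispase, then accutase and collagenase, and run on the 5' v3 chemistry of 10x Genomics. The authors deposited raw UMI counts for each gene in each barcode. Cell Ranger 9.0.1 and build GRCm39 are named in the submitters' processing notes and, for the tool, in the file headers. Depth was 134917708 UMIs for the library labelled TG and 143875454 for the WT library. Counts come from 5' ends, so they can miss a transgene with a foreign leader.

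A minimum of 200 genes and a maximum of 15% mitochondrial UMIs removed 150 and 57 barcodes of the library labelled TG and 137 and 25 of the WT library. Each cell entered the class with the most detected markers of its gate (14 gates of 8 markers, 13 classes, the 2 dendritic gates merged), with at least 3 markers and a lead of 2, and otherwise stayed unassigned. Among gated cells 1319 and 1598 lay at that limit. Cells with a lead under 2 were left unassigned, which can take out doublets. A cell with markers of 2 classes and a lead of at least 2 stayed in its class, so doublets can remain. Scrublet (scanpy 1.11.5), whose automatic threshold marked 0% in both libraries, served only as an alternative that removed the 855 and 1156 highest scores. UMIs were summed per class and library and scaled to CPM with exact Poisson intervals. Ratios have exact conditional Clopper-Pearson intervals and shares exact binomial ones (scipy 1.17.1), all for counting error only, and code was checked on simulated counts. A share of 0 allows 3 counts in the total. With 1 library per genotype no test, p-value or standard error exists.

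The members, gene lists, markers and rules were chosen with earlier results of these data known, and no member is a gate marker. Named genes were all members, Has2, in each list and class the gene with the largest ratio in each direction among those with at least 100 UMIs and past 1.5-fold, and for each member the 2 genes most like it, apart from genes that are not reported here. Alternatives were a stricter gate, clusters, doublet removal, other cell filters, means over cells, thinning in 2 random draws (the second added after seeing the data; thinned shares come from a draw of their own), TMM scaling, leaving out the top cell, and other limits on UMIs and fold.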

Additional observations from a re-analysis of the deposited data

Results flagged for a closer look

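By its ratio, Nlrp3 was past 1.5-fold on opposite sides of 1 in different classes, with 1.67 in neutrophil-like cells and 1.62 in endothelial-like cells, against 0.545 in T cell-like cells. The T cell-like value rests on 11 UMIs in the library labelled TG and 42 in the WT library, has an interval of 0.253 to 1.08 and turned to 3.66 without the highest Scrublet scores, so no direction is read from it. The endothelial-like value was 0.700 in 1 draw of thinned cells and 1.63 in another. The difference between the classes was not tested.

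Gsdme was past 1.5-fold in opposite directions in 2 well-filled classes, with a ratio of 1.59 in fibroblast-like cells and 0.663 in neutrophil-like cells, both within the fold as means of per-cell CPM (1.12 and 0.724). With 1 library per genotype this difference was not tested. Summed macrophage or monocyte markers in fibroblast-like cells were at 75.2 CPM in the library labelled TG and 44.6 CPM in the WT library, and neutrophil markers at 85.3 and 108 CPM. Single markers did not all follow the sums. Of the 8 neutrophil markers 6 were higher in the library labelled TG, with Retnlg and Il1r2 lower, and of the 8 macrophage or monocyte markers 4 were higher. The part of these markers was not tested.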

How the results depend on the processing

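No paired analysis was possible because each genotype has 1 library. Over 10 alternatives the 40 member ratios gave 398 values. Of these, 333 lay within the counting interval of the ratio as reported and, for ratios past the fold, on the same side of 1. Gsdme had no UMI to give a ratio in 1 draw of thinned endothelial-like and 1 of thinned T cell-like cells. Of the 12 ratios past 1.5-fold, 4 were past it under each of the 10, namely Nlrp3 (1.56 to 1.70), Pycard (0.324 to 0.412) and Ninj1 (1.93 to 2.05) in neutrophil-like cells and Pycard in macrophage- or monocyte-like cells (0.618 to 0.645). In all, 36 values of 19 ratios lay on the other side of 1, of which 31 belong to 16 ratios that were within the fold as reported. The other 5 were T cell-like Nlrp3 with clusters (1.07), without the highest Scrublet scores (3.66) and averaged over per-cell CPM (1.496), and, in the first draw of thinned cells, endothelial-like Nlrp3 (0.700) and T cell-like Gsdmd (0.677), which the second draw put back above 1 (1.63 and 1.48). The cause was not tested. Without the top cell of each library T cell-like Nlrp3 was at 0.169. With 2-fold in place of 1.5-fold, the members past it numbered 1 in neutrophil-like cells, 0 in macrophage- or monocyte-like, fibroblast-like and endothelial-like cells and 1 in T cell-like cells. The fibroblast-like count of 2 became 0 in the second draw of thinned cells. The endothelial-like count of 2 became 4 and 6 in the draws and 1 each with clusters, TMM scaling or without the top cell. For the draws, the limit of 20 UMIs was applied to counts before thinning, in every class and for the pathway pairs. A call there can rest on very few UMIs, as for endothelial-like Pycard with 1 and 2 in the first draw. The T cell-like count of 3 became 1 with clusters, 1 with per-cell CPM averaged and 0 with at least 100 UMIs. The 33 pathway pairs became 50 in the first draw, 20 with at least 100 UMIs, 63 with at least 1 UMI and 14 at 2-fold, all alternatives added after seeing the data. Shares of all genes past the fold were computed for the reported setting only. The counts under other settings therefore have no background beside them. The largest TMM shift of a class was 0.04 on the log2 scale, in neutrophil-like cells. Dendritic cell-like cells were not compared, since the library labelled TG had 47. Depth limits T cell-like and endothelial-like values most, where 3 UMIs are 5.95 and 0.715 CPM in the library labelled TG and 2.86 and 0.611 CPM in the WT library.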

Other observations

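Keratinocyte-like cells, too few in the WT library to compare (187 cells in the library labelled TG and 20 in the WT library), held 15.7% of all Pycard UMIs of the library labelled TG and 0.451% of those of the WT library. Casp1 was detected in 33.2% of these cells in the library labelled TG, at 24.2 CPM. Gsdmd was at 1.16 CPM there from 5 UMIs and Aim2 at 0.699 CPM from 3, and these levels are not compared between genes. In the WT library the same cells had 2 Casp1 UMIs, 6 Gsdmd UMIs and no Aim2 UMI.

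Cells that met no gate, 2125 of the library labelled TG and 2863 of the WT library, held 15.3% and 16.4% of the Nlrp3 UMIs, with 322 and 348 CPM. Their Pycard level was 41.0 CPM in the library labelled TG and 49.8 CPM in the WT library, and their Ninj1 level 347 and 314 CPM.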
